A study of Mus musculus with 14 samples.

Results

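The Grhl2 and Zfp750 loci were followed in a list of SOX10 chromatin immunoprecipitation (ChIP) regions from PY230 mouse mammary tumors, as 2 fixed windows of the genome (build mm9). The Grhl2 window was chr15:37050000-37400000 (350 kb) and the Zfp750 window, which also bears the name of Tbcd, was chr11:121250000-121550000 (300 kb). Members were all listed regions that overlapped a window by at least 1 base. There were 32 members among the 7929 regions of the list, 20 in the Grhl2 window and 12 in the Zfp750 window. The windows were chosen by the number, spacing and signal of these same regions, so all values below describe the list and none is a test.

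The list belongs to 2 PY230 SOX10 ChIP samples and was made against 1 PY230 SOX10 control sample. All of them were adult C57BL6J tumor material that grew from PY230 cells transplanted into syngeneic mice. The ChIP cells carried SOX10-AVI/BirA, a SOX10 fused to a short tag that the BirA enzyme biotinylates. Pull-down on streptavidin beads was thus directed at the introduced SOX10 and not at the cells' own protein. Whether untagged SOX10 came down with it is not shown. The labels call the other sample a control and do not say whether it carried BirA. How many tumors went into a sample is not given in the labels, and the series describes the tumors as bulk while the protocol mentions FACS isolation. Both ChIP samples share 1 pooled list, so no value has a replicate error, and the depth of the samples is unknown. The tissue label could not be checked against marker genes, since the list holds regions and no gene levels.

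Grhl2 encodes grainyhead-like 2, a transcription factor of epithelial cells that is known for maintaining E-cadherin, claudins and other junction genes and for opposing epithelial-mesenchymal transition. Zfp750, the mouse counterpart of human ZNF750, encodes a zinc-finger protein; the human protein is known as a factor of terminal differentiation in the epidermis, downstream of p63. SOX10 is a SoxE transcription factor with an HMG box, known from neural crest, glia and melanocytes and, in the mammary gland, from progenitor-like epithelial cells. In a gene table of another build (GRCm38.p6), Zfp750 lies inside Tbcd, which encodes a cofactor of tubulin folding, with Fn3k before and B3gntl1 after it. The nearest named protein-coding neighbours of Grhl2 there are Zfp706 and Ywhaz before, and Ncald after. Coordinates were not converted between builds. No region below is therefore assigned to a promoter, an exon or an intron, and the gene names of the windows come with the windows.

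In the Grhl2 window SOX10 ChIP regions were many, lay in separate runs from end to end and were of ordinary signal. The 20 regions spanned 338 kb of the 350 kb and covered 22298 bp, or 6.37% of the window. Their deposited signal, a number per region of unstated unit that behaves like an average read depth over the region, ran from 0.00767 to 0.0562 with a median of 0.0257 (quartiles 0.0196 and 0.0343). The median of the whole list was 0.0280. All 20 members lay less than 10 kb from another member. Joining at that distance left 7 runs and no single region.

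The first run lay at the low-coordinate end of the Grhl2 window and held 3 regions (37051422 to 37066056), with signals of 0.0341, 0.0443 and 0.0437. All 3 were above the list median. It was followed by 3 pairs of regions. The pair from 37083931 to 37090074 had signals of 0.0260 and 0.0253, both just below the list median. In each of the other pairs, a narrow weak region stood before a wide stronger one. The pair from 37122619 to 37129874 joined a region of 334 bp at a signal of 0.00774 with the widest region of the window, 2305 bp at 0.0345. The pair from 37151428 to 37163816 joined 373 bp at 0.0208 with 2221 bp at 0.0342.

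The longest run of the Grhl2 window held 7 regions within 20.9 kb (37234382 to 37255273). It began after a gap of 70.6 kb without a listed region and was followed by one of 102 kb. Its signals along the chromosome were 0.0341, 0.0173, 0.0147, 0.0354, 0.0562, 0.00767 and 0.0170. The strongest and the weakest member of the whole window were neighbours in this run. The strongest, 1292 bp wide, ended 305 bp before the weakest, which was 337 bp wide. The median of the run was 0.0173, below that of the window, and 4 of its 7 regions had 0.0173 or less. The last 4 regions of the window formed a pair at 37357666 to 37362068 (0.0203 and 0.0222) and a pair at 37380999 to 37389413 (0.0270 and 0.0250). All 4 were below the list median.

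**Figure D1:**
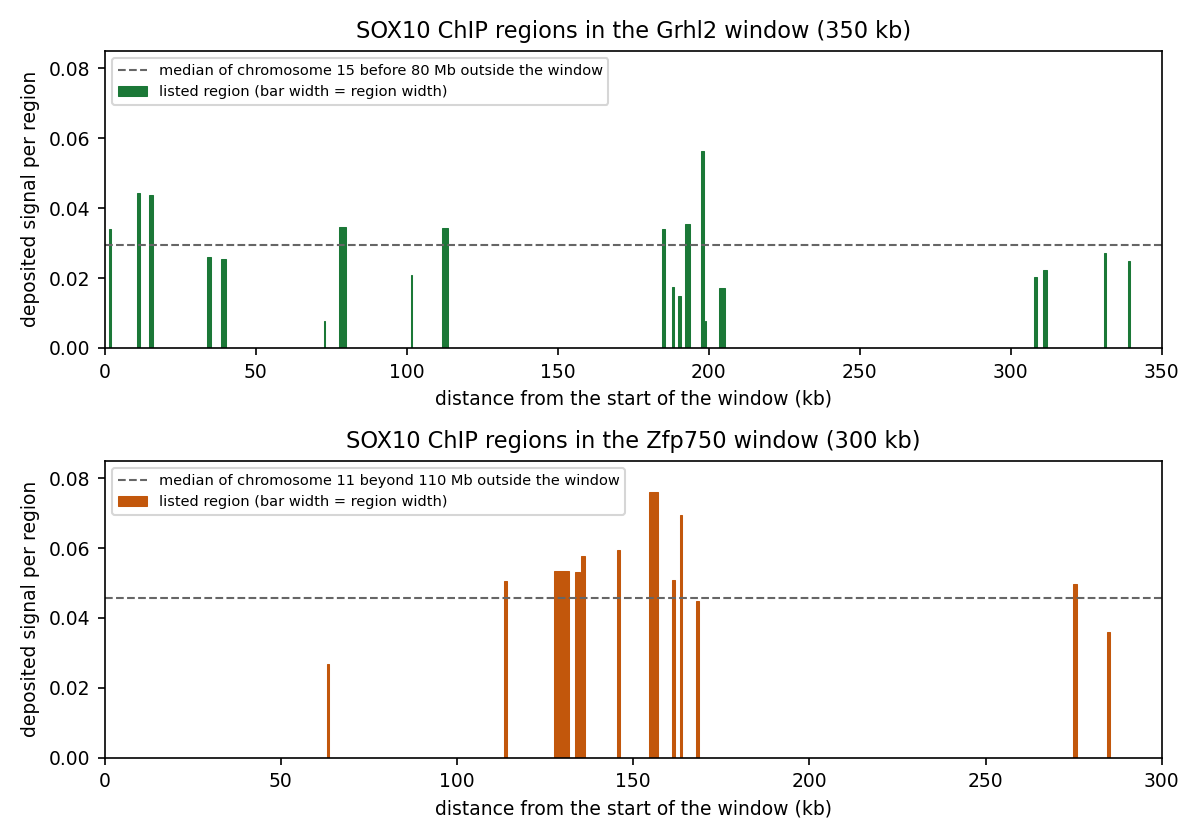
Deposited signal of each SOX10 ChIP region (bar height) against its distance in kb from the start of the Grhl2 window (top, 20 regions) and the Zfp750 window (bottom, 12 regions); bars are drawn to the width of the region with a thin outline, and the dashed lines are the medians of the other regions on the same chromosome part, 0.0295 and 0.0458. Regions at Grhl2 lie in 7 runs from end to end of the window, with gaps of 70.6 and 102 kb around the longest run, and 8 of 20 are above the line. At Zfp750 a group between 113 and 169 kb holds most of the signal and 9 of 12 regions exceed the line.

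In the Zfp750 window regions were fewer, stronger and concentrated in 1 stretch. The 12 regions covered 15962 bp, or 5.32% of the window, and their signals ran from 0.0267 to 0.0761 with a median of 0.0520 (quartiles 0.0486 and 0.0582). 11 of the 12 exceeded the list median of 0.0280. Joining at gaps under 10 kb left 4 units, which were 2 single regions and runs of 8 and 2 regions.

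The run of 8 lay at 121377478 to 121418545, over 41.1 kb. Its signals along the chromosome were 0.0533, 0.0532, 0.0578, 0.0595, 0.0761, 0.0508, 0.0694 and 0.0449. Every region of the run was therefore above the upper quartile of the list (0.0374). The median of the other regions beyond 110 Mb on chromosome 11, 0.0458, was above it too. The run opened with the widest member of either window, 4213 bp (121377478 to 121381690). Regions of 1518 and 1241 bp followed, only 95 bp apart. The strongest member was the second widest, 2579 bp at a signal of 0.0761 (121404440 to 121407018). It ranked 13 on chromosome 11 and 121 in the list. Of the 6131 runs and single regions of the whole list, 9 held 8 or more regions, and 4 of these lay on chromosome 11.

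Outside the run, the single region at 121363238 to 121364054 had a signal of 0.0506 and lay 13.4 kb before it. The other single region, 121313047 to 121313530, was both the narrowest (484 bp) and the weakest (0.0267) of the window and lay a further 49.7 kb away. After the run no region was listed for 106 kb. A pair closed the window at 121524902 to 121535245, with signals of 0.0498 and 0.0360.

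Signal times width gave a reading of the size of each region in read equivalents. Among the list's regions under 1500 bp with a signal above 0, 99.8% had a product within 0.05 of a whole multiple of 1 step (0.0479), and of all lengths from 40 to 70 steps, 54 divided that multiple most often, in 2856 of the 7282 regions (39.2%). The other regions have no whole number of read equivalents. A read equivalent is the product divided by the step and by 54; it is not a count made by the authors and may be net of the control. The Grhl2 window summed to 258 read equivalents and the Zfp750 window to 344. At Grhl2 the sum was spread out: the run of 7 regions held 87.0 or 33.7% of it, and 2 of the 20 regions were worth a single read equivalent each. Within 0.05 of a whole number were 9 of the 20 Grhl2 regions and 2 of the 12 Zfp750 regions. No share of the whole list by this measure is given here, so no difference between the loci is read from these counts. At Zfp750 the run of 8 held 288 or 83.8%. Its 2 widest regions, with 86.9 and 75.9, made up 47.4% of the window. No Zfp750 member was under 5 read equivalents, against 5 of the 20 Grhl2 members. Such values were common in the list and do not set Grhl2 apart. The lower quartile was 4.22 in the whole list and 4.69 in the rest of chromosome 15, against 5.74 in the Grhl2 window. Beyond 110 Mb on chromosome 11 it was 8.22. Values under 5 read equivalents limit any ranking of the weaker Grhl2 regions.

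**Figure D2:**
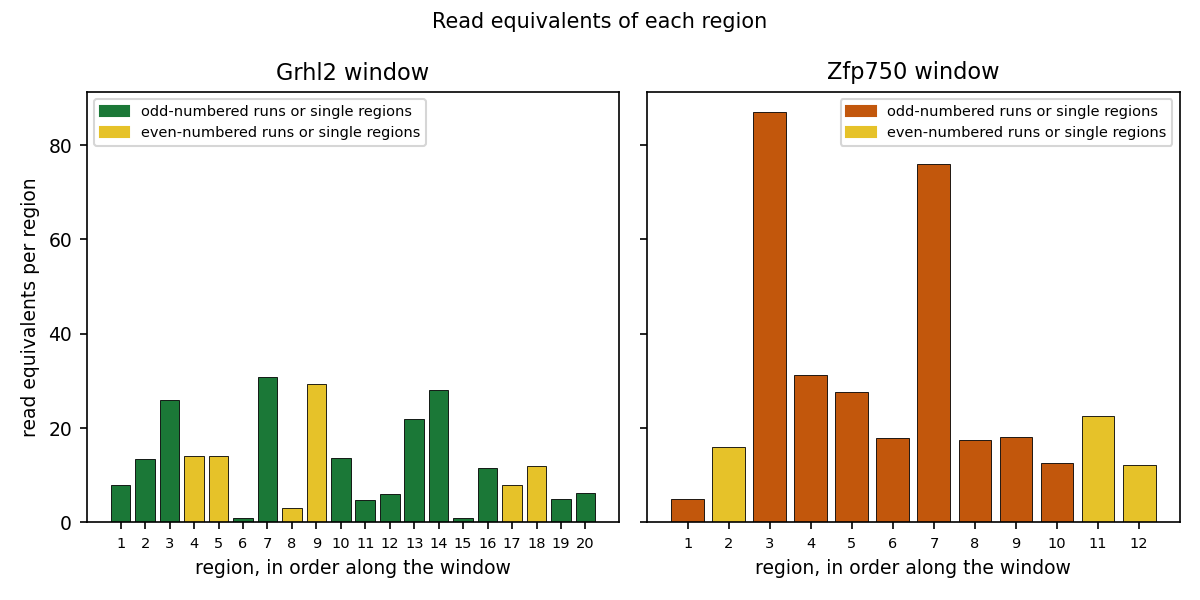
Read equivalents, computed from signal and width as described above, of each region in its order along the Grhl2 window (left, 20 regions) and the Zfp750 window (right, 12 regions); colors alternate between successive runs or single regions joined at gaps under 10 kb. Grhl2 regions range from 1.00 to 30.7, while at Zfp750 regions 3 and 7 reach 86.9 and 75.9 and the rest stay at 31.3 or below.

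The Grhl2 window was set against the rest of chromosome 15. It held 57.1 regions per Mb, against 4.98 per Mb in the rest of the chromosome. Of its 19 gaps between neighbours, 13 (68.4%) were under 10 kb, against 26.1% in the rest of chromosome 15, 27.7% in its part before 80 Mb and 22.7% in the whole list. Its median gap was 4.62 kb, against 40.7 kb. Its regions were wider, with a median of 1043 bp (quartiles 635 and 1459) against 736 bp (quartiles 517 and 1114). Of the 20, 5 were 1500 bp or wider, against 12.3% in the rest of the chromosome, 13.7% before 80 Mb and 7.34% in the whole list.

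Signal did not set the Grhl2 window apart from its chromosome. The median was 0.0257, against 0.0274 in the rest of chromosome 15 (quartiles 0.0210 and 0.0369). Among the 10% of the list with the highest signal was 1 of the 20, against 7.60% of the rest of the chromosome and 9.07% of the regions before 80 Mb (10.0% in the whole list by construction). Among the 50% with the highest signal were 8 of the 20, against 47.8% of the rest and 53.9% before 80 Mb. Both shares are no higher than this background. Against the part of chromosome 15 before 80 Mb alone, with 408 other regions and a median of 0.0295, the Grhl2 median was 0.869 times as high.

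The Zfp750 window lies near the end of the listed part of chromosome 11, in a stretch from 112550001 on where regions are dense and strong in general. From 110150001 to 112550000 the windows of 300 kb held at most 1 region each. That sparse part is included in the values beyond 110 Mb below and lowers their density. The Zfp750 window held 40 regions per Mb, against 20.5 beyond 110 Mb (233 other regions) and 4.53 in the rest of chromosome 11. Of its 11 gaps, 8 (72.7%) were under 10 kb, against 43.5% beyond 110 Mb and 27.8% in the rest of the chromosome. Its median gap was 8.18 kb, against 14.9 kb beyond 110 Mb. The median width was 878 bp (quartiles 766 and 1310), close to the 815 bp of the regions beyond 110 Mb (quartiles 542 and 1261). 3 of the 12 were 1500 bp or wider, against 14.6% beyond 110 Mb and 6.73% in the rest of the chromosome.

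Among the 10% of the list with the highest signal were 9 of the 12 Zfp750 regions, against 42.9% of the regions beyond 110 Mb and 22.2% of the rest of chromosome 11. Among the 50% with the highest signal were 11 (91.7%), against 86.3% beyond 110 Mb and 61.8% in the rest of the chromosome. The median signal of 0.0520 stood against 0.0458 beyond 110 Mb (quartiles 0.0347 and 0.0557), a ratio of 1.14 that keeps the window inside the quartiles of its surroundings. Against the rest of chromosome 11, with a median of 0.0342 (quartiles 0.0228 and 0.0465), it lay above the upper quartile. How much of the signal here follows the raised level of the chromosome end was not tested.

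**Figure D3:**
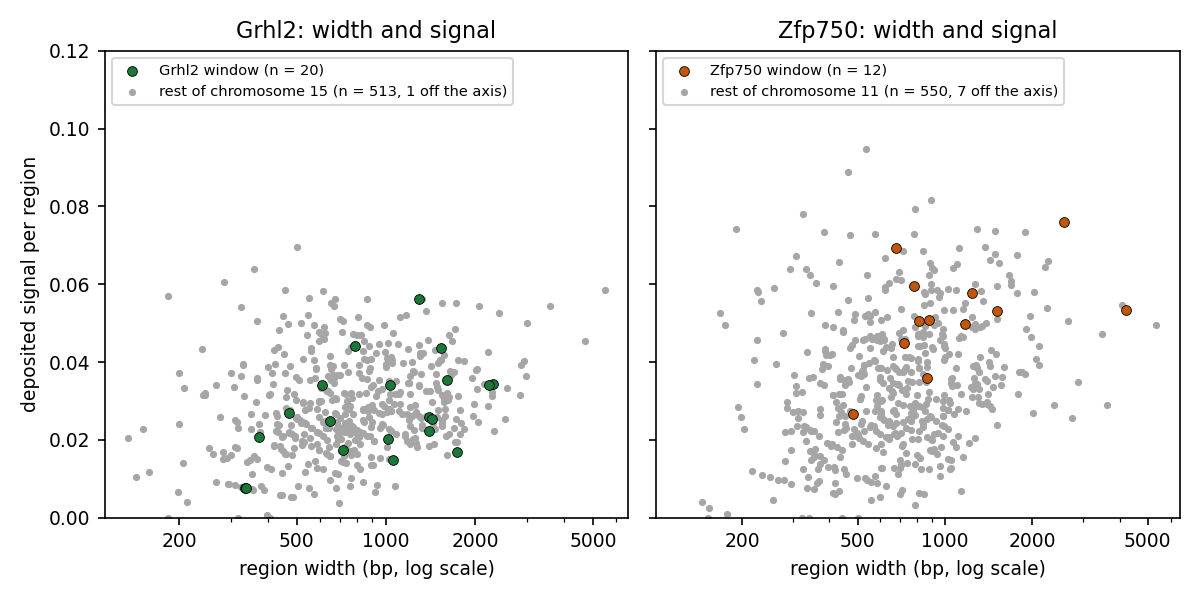
Deposited signal against region width in bp (log scale) for the Grhl2 window beside the rest of chromosome 15 (left) and the Zfp750 window beside the rest of chromosome 11 (right); colored points are the 20 and 12 members, grey points the other 513 and 550 regions, of which 1 and 7 lie above the signal axis limit of 0.12. Grhl2 members fall within the cloud of their chromosome, and 11 of 12 Zfp750 members lie above the chromosome 11 median of 0.0342.

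Windows of the same size laid end to end over each chromosome gave the rank of each locus. On chromosome 15, 2 of 286 windows (0.699%) held as many regions as the Grhl2 window or more, the window itself included. The other windows had a median of 1 region (quartiles 0 and 2), and 47.0% of them had none. The Grhl2 window held 20 regions and 258 read equivalents, against 22 regions and 601 read equivalents in the fullest of these windows, from 50.7 to 51.05 Mb. These ranks hold for windows laid out from the locus. With windows sliding by 10 kb, the fullest place on chromosome 15 held 24 regions (59240001 to 59590000), and 0.330% of windows held as many as Grhl2 or more. Counting each run once, 2.45% of the end-to-end windows had as many units as Grhl2 or more. By summed read equivalents Grhl2 again stood among 2 of 286 windows (0.699%). The windows on either side of it held 7 and 3 regions, with medians of 0.0365 and 0.0351.

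On chromosome 11, 6 of 395 windows (1.52%) held as many regions as the Zfp750 window or more, and the other windows had a median of 0 (upper quartile 2). All 6 lay beyond 110 Mb. Among the 38 windows of that part alone the share was 15.8%, and the other windows had a median of 6 regions, the sparse ones before 112550001 included. The 12 regions at Zfp750 thus lay within the range of the other windows of the chromosome end, which was 0 to 21. With windows sliding by 10 kb, the fullest place on chromosome 11 held 23 regions (116900001 to 117200000). Counting each run once, 8.35% of the end-to-end windows had as many units as Zfp750 or more. By summed read equivalents it stood higher, among 2 of 395 windows (0.506%). These windows begin at 3050001 and leave out the strong regions listed before that position, of which 1 alone held 249 read equivalents. The sum of the regions left out was not set against the windows. Places outside the windows may therefore hold more than Zfp750. The Zfp750 window held 12 regions and 344 read equivalents, against 21 regions and 421 read equivalents in the other of the 2 windows, from 112.85 to 113.15 Mb. The windows on either side of the Zfp750 window held 5 and 2 regions. The one with 2 runs past the last listed end of chromosome 11, at 121653297, so it is not a whole window.

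**Figure D4:**
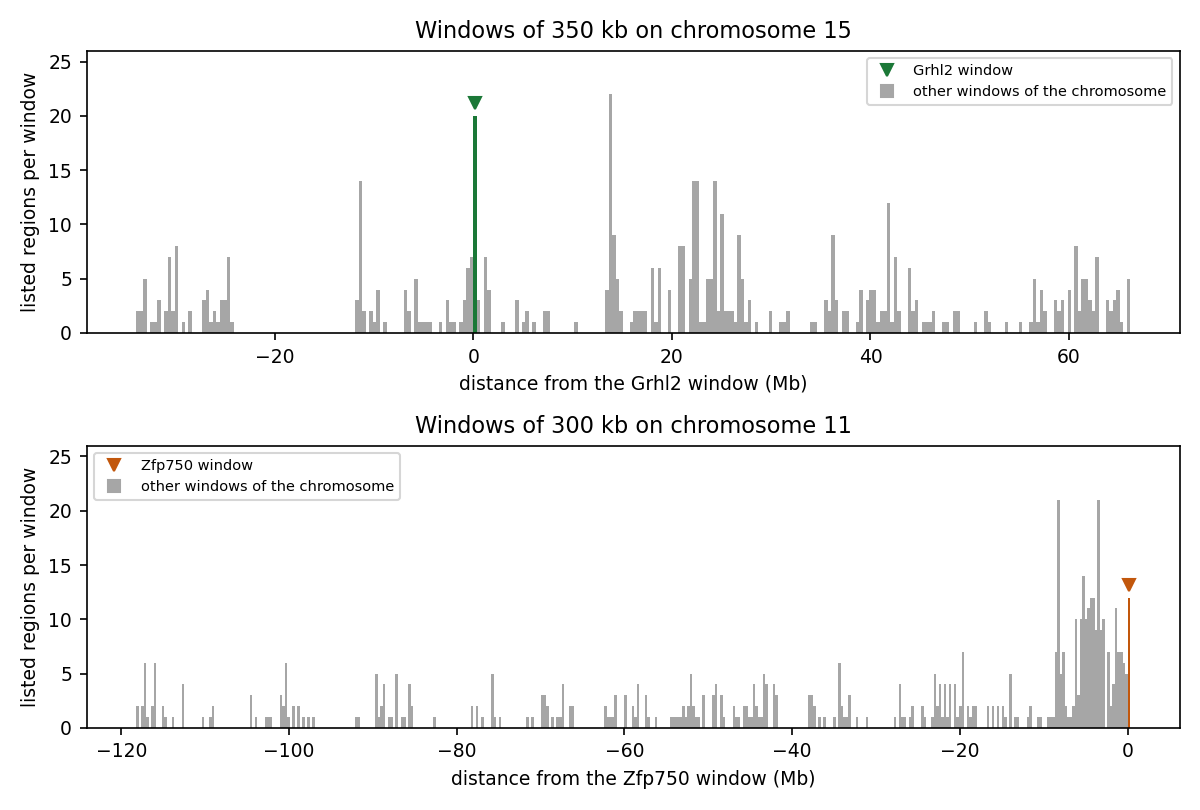
Number of listed SOX10 ChIP regions in each window of 350 kb on chromosome 15 (top, 286 windows) and of 300 kb on chromosome 11 (bottom, 395 windows), placed by distance in Mb from the Grhl2 or Zfp750 window, which is colored and marked by a triangle. The Grhl2 window, with 20 regions, is exceeded by 1 of the plotted windows, with 22; the Zfp750 window, with 12, sits at the end of a dense stretch in which the fullest plotted windows hold 21.

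Set beside each other, the loci differed in number and in signal in opposite directions. Zfp750 had 12 regions and a median signal of 0.0520, and Grhl2 had 20 regions and a median of 0.0257, a ratio of medians of 2.03 for Zfp750 over Grhl2. In signal their surroundings differed in the same direction, with a ratio of 1.55 between the medians of chromosome 11 beyond 110 Mb and chromosome 15 before 80 Mb. In number they did not: Zfp750 held 40 regions per Mb and Grhl2 57.1, while the surroundings of Zfp750 held 20.5 per Mb and those of Grhl2 5.12. The signal ranges overlapped. Of the Zfp750 regions, 10 of 12 exceeded the second strongest Grhl2 region (0.0443). At or above that value lay 13.8% of the whole list, and the median beyond 110 Mb was 0.0458. Of the Grhl2 regions, 11 of 20 lay below the weakest Zfp750 region (0.0267), while 54.6% of the whole list lay at or above it. Signals within Zfp750 spread over 2.85-fold, those within Grhl2 over 7.33-fold. Both loci had in common a long run (8 regions at Zfp750 and 7 at Grhl2), a gap after it (106 kb at Zfp750 and 102 kb at Grhl2) and further regions before the window ended (2 at Zfp750 and 4 at Grhl2). Over each whole chromosome such gaps are not unusual. The upper quartile was 159 kb in the rest of chromosome 15 and 178 kb in the rest of chromosome 11. Beyond 110 Mb it was 49.9 kb, so the gap at Zfp750 was long for its own surroundings. The number of regions after the gap depends on where the window ends.

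The edges of the windows cut through no region. The first Grhl2 member had a signal of 0.0341 and lay 10.7 kb from the nearest region before the window (37040141 to 37040741, signal 0.0473). The last Grhl2 member had 0.0250 and lay 46.9 kb from the nearest region after it (37436323 to 37437405, signal 0.0351). The Zfp750 window stood more alone on its low-coordinate side, where the first member, with a signal of 0.0267, was 214 kb from the nearest region outside (121097900 to 121098668, signal 0.0596). On its other side the last member, with 0.0360, was 66.9 kb from the nearest region outside (121602129 to 121602615, signal 0.0229).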

How the data were processed

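Genomic regions and a signal for each were deposited as 1 list for both PY230 SOX10 ChIP samples against the control. The submitters' processing notes name FastQC, Bowtie 0.12.8, SAMtools 1.3.1, MACS2 2.1.1 and mm9 without parameters. Not given in the sources used here are the calling threshold, the treatment of duplicates and how the authors computed the signal. The other groups of the 14 samples were not analysed here. Starts were made 1-based. Members were found by overlap with the windows, and neighbours were joined at gaps under 10 kb. Whole windows of equal size were laid end to end outward from each locus, between 3 Mb and the last listed end. Densities per Mb use that last end as the chromosome length. The steps were checked on simulated regions. Named regions were the ends, extremes, runs and outside neighbours of each window. The windows, members and comparisons were chosen with earlier results of these data known. No tests were made. Alternatives changed the region set, the gap, the window edges and the set of windows. Python 3.11.15, numpy 2.4.6 and pandas 2.3.3 were used.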

Additional observations from a re-analysis of the deposited data

How the results depend on the processing

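No paired analysis was possible because both ChIP samples share 1 pooled list, and leaving out a sample was not possible either. Of 40 alternatives, 31 stayed within 1.5 times the count, the spread over regions or the 95% exact binomial interval of the share. Some of them could not move, since every member had a signal above 0 and the window edges cut no region. For the Grhl2 share the interval was wide, 0.0848% to 2.50%, so 2.45% with runs counted once still lay within it. Neighbouring windows are not independent, so the interval is only a rough limit. Of the Grhl2 regions, 8 remained in the 50% of the list with the highest signal and 1 in the highest 10%. Joining at gaps under 5 kb gave 7 units at Zfp750 in place of 4, and more units follow from a shorter gap. With windows of all chromosomes, 0.0686% held as many regions as Grhl2 and 0.365% as many as Zfp750. For Zfp750 the share was 3.28% among windows with at least 1 region, 15.8% beyond 110 Mb, 8.35% with runs counted once and 0.506% by summed signal times width. The last of these shares leaves out the strong regions listed before 3050001. The shares of 3.28% and 15.8% follow from the smaller set of windows, and the cause of the other shifts was not tested. Signals worth few read equivalents limit the order of single regions.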
